A study of Mus musculus with 239 samples.

Results

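The 60 genes described here encode collagens, laminins and the proteins that join them into basement membrane. They are the 43 genes of the table named as collagen chains (Col, a type number, a and a chain number), the 11 named as laminin α, β or γ chains, and Nid1, Nid2, Hspg2, Agrn, Sparc and Fn1, out of 18850 genes in all. Single cells from the mammary glands of female FVB mice, 3 to 4 months old, were captured on Fluidigm C1 chips and profiled by RNA-seq after depletion of blood and endothelial cells and sorting on CD24 and CD29. Mice were virgin or pregnant, at day 12 in the series text and day 12.5 in the protocol, and carried no named allele or agent. The sort placed cells of intermediate CD24 and high CD29 in the basal gate and cells of high CD24 and low CD29 in the luminal gate, and antibody to CDH5, an endothelial cadherin, was part of the stain. The table held 34 virgin basal, 54 virgin luminal and 49 pregnant luminal cells, and the remainder pregnant basal. Because the labels do not tie cells to mice, chips or days, a group was taken as 1 sample and no test was made. Every SD given is a spread over cells.

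Basement membrane is a thin sheet of matrix under epithelium and around vessels, muscle fibres and fat cells. Laminin trimers of an α, a β and a γ chain assemble at the cell surface through integrins and dystroglycan, type IV collagen trimers form a covalent network, and nidogens, perlecan (Hspg2) and agrin (Agrn) link the networks. In the mammary gland the basal layer of myoepithelial cells lies on the basement membrane, whereas most luminal cells face the duct or alveolus. The fibrillar collagens of the surrounding stroma are classically products of fibroblasts.

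A gene was counted as detected in a cell at 1 FPKM (fragments per kilobase of transcript, scaled to the fragments of the library) or more. Groups were compared by their mean log2(FPKM + 1), taken over cells, and a difference of 1 or more in size was called higher or lower. The 13 cells with Cdh5 at 1 FPKM or more, 7 virgin basal, 5 pregnant basal and 1 pregnant luminal, were kept apart. That left 27 virgin basal, 54 virgin luminal, 97 pregnant basal and 48 pregnant luminal cells. The lowest Cdh5 value inside that set was 2.50 FPKM and the highest outside it was 0.118 FPKM.

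Before the results, 7 of the remaining 226 cells went against their gate by marker lists. Virgin basal cell 15 and pregnant luminal cell 37 had fibroblast markers as their leading list, virgin basal cell 16 endothelial markers, virgin basal cell 32 luminal markers, and pregnant luminal cells 2, 5 and 31 basal markers. Some of them also held markers of their gate. Virgin basal cell 32 had 1449 FPKM of Acta2, virgin basal cell 15 had 143 of Krt14, and pregnant luminal cell 31 had 475 of Krt18. The 54 virgin luminal and 97 pregnant basal cells all led with the list of their gate. Summed over 8 basal markers, virgin basal cells had a median of 4046 FPKM (160 to 19776) and pregnant basal cells 7363 (1619 to 24672), against 0.306 and 87.97 in virgin and pregnant luminal cells. Over 8 luminal markers the medians were 3298 and 3100 in virgin and pregnant luminal cells and 260 and 283 in virgin and pregnant basal cells, so the gates carried the markers of their names. Depth, read from the steps between low FPKM values, was a median of 8.75 M fragments (M, mega) over all cells (1.15 to 39.9). It was lowest in virgin basal cells, with a median of 5.43 M, against 9.07 M in the pregnant basal, 8.87 M in the pregnant luminal and 8.55 M in the virgin luminal group. The median number of genes at 1 FPKM was also lowest there, 1887 against 2746, 3604 and 3773 in the same order. At the median depth, 1 FPKM of Col4a1 corresponds to 57.9 fragments and 1 FPKM of Sparc to 20.1.

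Of the 60 genes, 27 reached 1 FPKM in at least 25% of the cells of some group, 25 did so in fewer cells, and 8 did so in no cell of the 4 groups (Col13a1, Col19a1, Col20a1, Col22a1, Col24a1, Col28a1, Col6a5 and Nid2). Among the 27, the greatest share of cells was in pregnant basal cells for 23, in virgin luminal cells for 3 (Col8a1, Lama5 and Col6a3) and in pregnant luminal cells for 1 (Col9a1). A virgin basal cell held a median of 11 of the 60 genes (3 to 22), a pregnant basal cell 18 (9 to 26), a virgin luminal cell 4 (0 to 10) and a pregnant luminal cell 3 (0 to 26). The pregnant luminal cell with 26 was the fibroblast-leading cell 37. Across cells of a group the number of these genes went with the number of all genes detected in the basal gate (Spearman 0.85 over 27 virgin and 0.68 over 97 pregnant cells) and hardly in the luminal gate (0.17 over 54 virgin and 0.048 over 48 pregnant cells). These correlations describe cells that differ in depth and share library preparation.

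The 4 genes with their greatest share of cells in a luminal group are exceptions by share, so the bases before their start sites are shown. Of the 4, only Col8a1 was called between gates, and the differences of Lama5, Col6a3 and Col9a1 stayed within 1. The mean FPKM of Col6a3 was higher in virgin basal (5.69) than in virgin luminal cells (2.42). RefSeq promoter windows (GRCm38.p6) were matched for 44 of the 60 genes. Each line gives the 250 bases upstream of the annotated start, 5′ to 3′ on the gene's strand, and none of these windows overlaps an annotated exon. Capitals mark matches, on either strand, to the GC box (GGGCGG) or the oestrogen receptor half-site (GGTCA). The core promoter motif TATAAA, the motif CCAAT and the AP-1 site TGANTCA were also searched on both strands and had no match in these 4 windows. The E-box CANNTG, not capitalised, was found 99 and 18 bases before the start of Col8a1 and 246 and 186 bases before that of Lama5.
Col8a1, chr16:57754738-57754987, minus strand: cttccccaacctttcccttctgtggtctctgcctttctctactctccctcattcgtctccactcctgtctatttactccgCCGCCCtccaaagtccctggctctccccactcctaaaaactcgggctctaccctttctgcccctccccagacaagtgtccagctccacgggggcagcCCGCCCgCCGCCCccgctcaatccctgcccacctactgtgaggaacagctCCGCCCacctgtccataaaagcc
Lama5, chr2:180225860-180226109, minus strand: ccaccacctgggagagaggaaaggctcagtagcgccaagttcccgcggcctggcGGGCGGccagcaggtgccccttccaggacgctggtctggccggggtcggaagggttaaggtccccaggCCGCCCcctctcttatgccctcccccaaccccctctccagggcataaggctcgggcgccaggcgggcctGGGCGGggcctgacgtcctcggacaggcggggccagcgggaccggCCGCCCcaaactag
Col6a3, chr1:90843972-90844221, minus strand: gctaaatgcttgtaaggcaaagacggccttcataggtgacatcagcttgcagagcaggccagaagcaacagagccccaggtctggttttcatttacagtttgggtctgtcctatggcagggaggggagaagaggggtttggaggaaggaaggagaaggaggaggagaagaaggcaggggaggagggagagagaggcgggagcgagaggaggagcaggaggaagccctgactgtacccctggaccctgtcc
Col9a1, chr1:24177360-24177609, plus strand: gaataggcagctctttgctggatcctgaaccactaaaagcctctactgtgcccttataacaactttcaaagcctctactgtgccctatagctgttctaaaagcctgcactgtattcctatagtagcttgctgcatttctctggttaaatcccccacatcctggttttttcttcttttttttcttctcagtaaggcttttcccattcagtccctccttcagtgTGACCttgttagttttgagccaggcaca

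The Col8a1 window held 4 GC boxes, which began 170, 73, 66 and 23 bases before the start, and the Lama5 window also held 4, at 196, 128, 59 and 14 bases. The Col6a3 window held none of the motifs searched, and the Col9a1 window held 1 half-site, 28 bases before the start. A GC box occurs in 32.7% of the 32851 windows of the same length in the table and in 28 of the 49 windows of the matrix genes. The half-site occurs in 35.2% of all windows and in 16 of the 49. For the other motifs the shares of all windows were 12.4% for TATAAA (5 of the 49), 33.8% for CCAAT (15), 6.75% for TGANTCA (1) and 66.2% for CANNTG (27). These are matches of letters in a window and say nothing about binding.

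**Figure D1:**
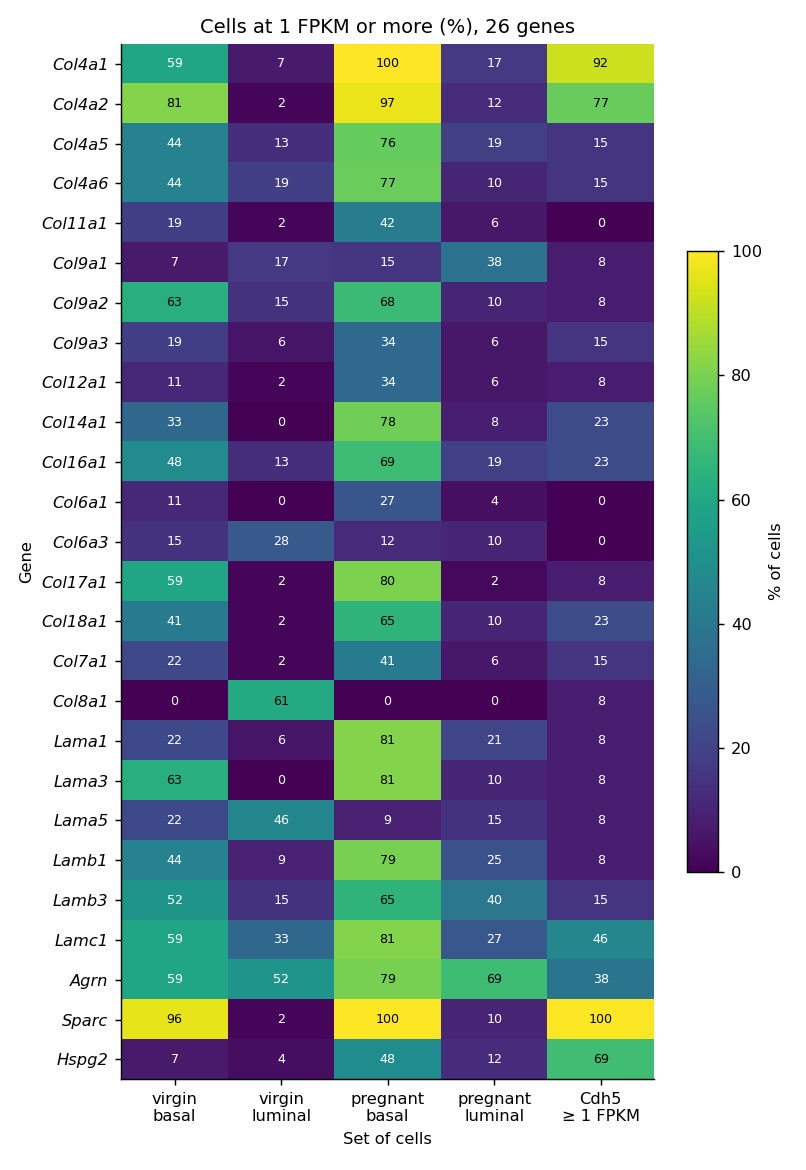
Share of cells (%) at 1 FPKM or more for 26 genes that reached 25% of cells in some group, by gate and state, with the 13 cells of Cdh5 at 1 FPKM or more as a separate column. Pregnant basal cells have the greatest share of the 4 groups for 22 of these genes, and Col8a1, Lama5, Col6a3 and Col9a1 are the 4 exceptions.

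The most abundant of these genes was Sparc (chromosome 11, 55394500 to 55423183, GRCm38), a calcium-binding glycoprotein that binds collagens. Virgin basal cells had a median of 622 FPKM (0.0997 to 2710), pregnant basal cells 1062 FPKM (152 to 3469), virgin luminal cells 0 (0 to 1.297) and pregnant luminal cells 0.0815 (0 to 14005). All but 1 of the basal-gate cells lay above 1 FPKM, and all but 6 of the luminal-gate cells below it. Basal cells were higher than luminal cells by 8.64 in virgin and 8.86 in pregnant glands, with means of 8.70 ± 2.38 (SD, n = 27 cells) and 10.06 ± 0.86 (SD, n = 97 cells). Of the 5 pregnant luminal cells above 1 FPKM, 4 were the cells that went against their gate, and these 4 held 98.8% of the Sparc FPKM summed over the group. Among the other 44 cells, 1 reached 1 FPKM, at 208 FPKM.

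**Figure D2:**
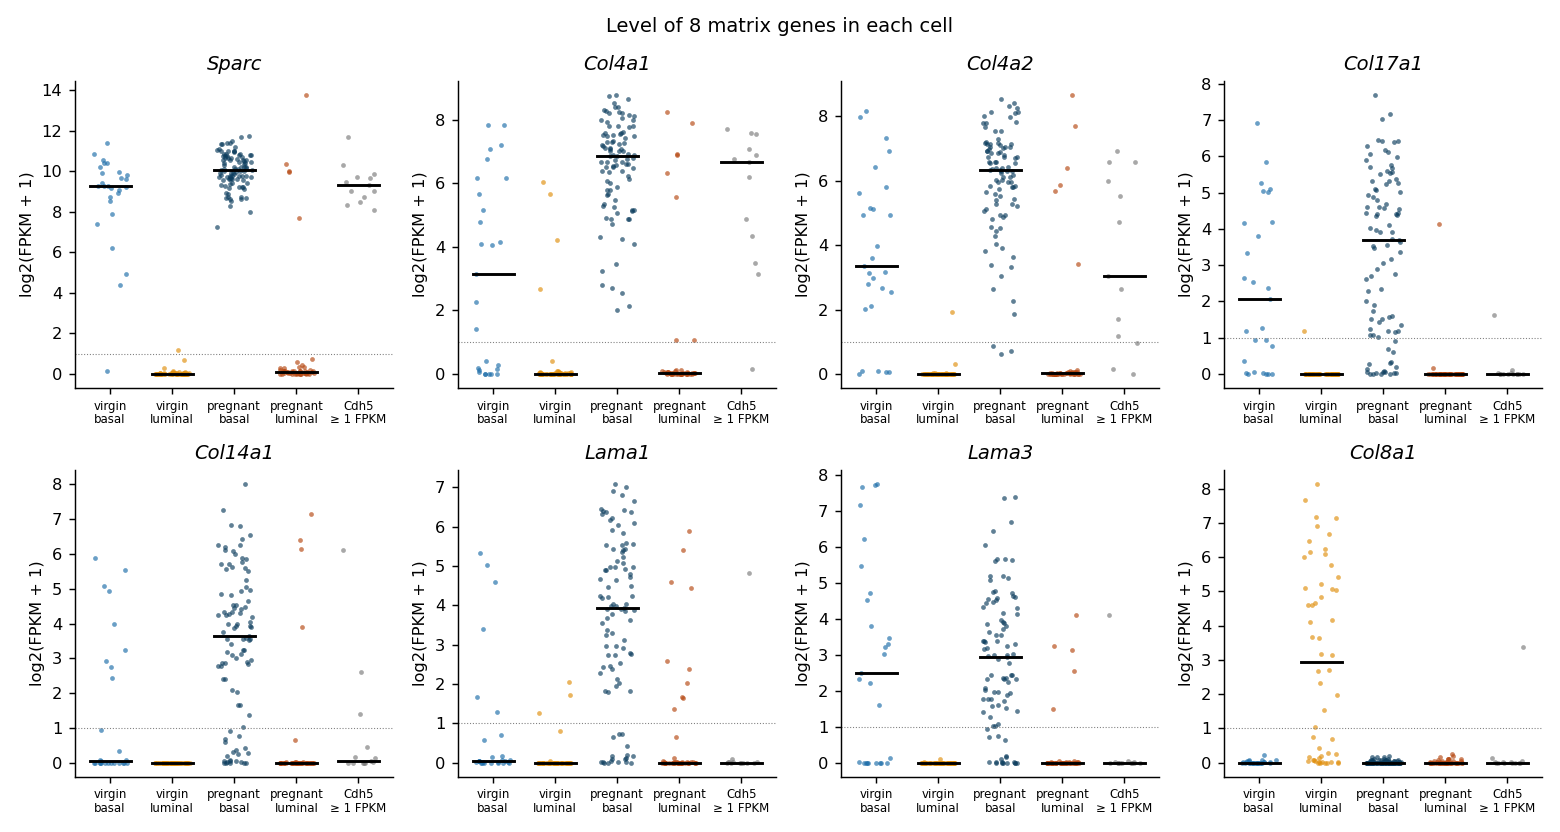
Level of 8 genes in each cell, log2(FPKM + 1); points are cells, black bars are group medians, and the dotted line marks 1 FPKM. Sparc, Col4a1 and Col4a2 fill the pregnant basal group, Lama1 is at 1 FPKM in 6 of 27 virgin and 79 of 97 pregnant basal cells, and Col8a1 is above 1 FPKM in virgin luminal cells alone among the 4 groups.

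Type IV collagen is the network collagen of basement membrane. Its α1 and α2 chains, which assemble into the common trimer, are encoded head to head on chromosome 8: Col4a1 at 11198423 to 11312826 on the minus strand and Col4a2 at 11312805 to 11449287 on the plus strand. The annotated genes overlap by 22 bases, within which reads of a kit that does not mark strand cannot be assigned. Col4a1 was a median of 7.85 FPKM in virgin basal cells (0 to 228) and 114 in pregnant basal cells (3.05 to 438). It was detected in 16 of 27 and 97 of 97 of these cells, against 4 of 54 virgin luminal (highest 64.8) and 8 of 48 pregnant luminal cells (highest 301). Col4a2 followed with medians of 9.19 (0 to 287) and 79.2 (0.551 to 373), detected in 22 of 27 and 94 of 97 basal cells, 1 of 54 virgin luminal and 6 of 48 pregnant luminal cells. The ranges of basal and luminal cells overlapped for both genes. In pregnant luminal cells that led with luminal markers, Col4a1 was detected in 4 of 44 and Col4a2 in 2 of 44.

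Both chains were detected together in 94 of 97 pregnant basal and 15 of 27 virgin basal cells. Within pregnant basal cells their levels were only loosely related (Pearson 0.38 and Spearman 0.37 on log2 values, 97 cells of 1 group). The median ratio of Col4a1 to Col4a2 FPKM was 1.23 over the cells with both. Basal minus luminal differences were 2.79 and 3.70 in virgin, and 5.56 and 5.17 in pregnant glands, for Col4a1 and Col4a2 in that order.

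The α5 and α6 chains form a second type IV trimer and are encoded head to head on chromosome X, Col4a6 ending at 141474076 and Col4a5 beginning at 141475385, with 1308 bases between them. Col4a5 was detected in 12 of 27 virgin and 74 of 97 pregnant basal cells, with a pregnant median of 6.18 FPKM (0 to 186). Col4a6 was detected in 12 of 27 and 75 of 97, with a pregnant median of 8.76 FPKM (0 to 170). Of the pregnant basal cells, 57 had both chains, 17 only Col4a5 and 18 only Col4a6. Such counts depend on the share of cells with each gene alone, for this pair as for the first. Pairing beyond those shares was not tested. Col4a6 was also detected in 10 of 54 virgin luminal cells, up to 22.6 FPKM. The α3 and α4 chains, which make the type IV collagen of the kidney filter, were at 1 FPKM in 2 and 4 of 97 pregnant basal cells and in no virgin basal cell.

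**Figure D3:**
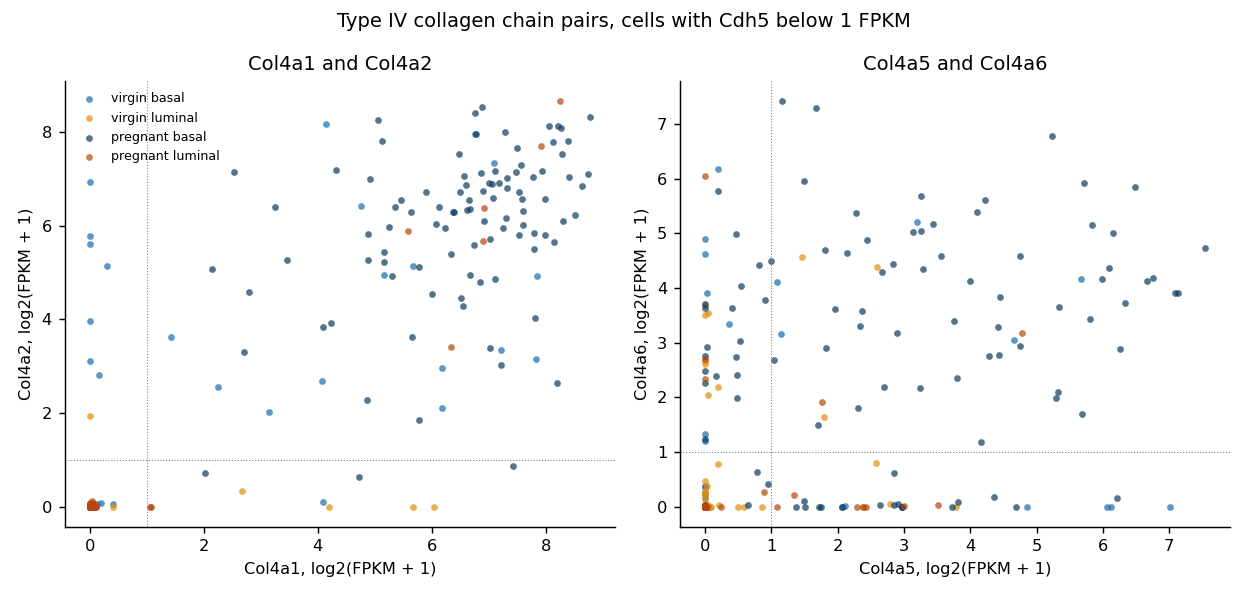
Col4a1 against Col4a2 and Col4a5 against Col4a6, log2(FPKM + 1), each point a cell coloured by group and dotted lines at 1 FPKM. Of 97 pregnant basal cells, 94 lie above both lines for the first pair and 57 for the second.

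Among laminin α chains, which set the receptor binding of a trimer, the basal gate differed between states in Lama1 and hardly in Lama3. Lama1 (chromosome 17, 67697259 to 67822647) was a median of 0.0359 FPKM in virgin basal cells (0 to 39.2) and 14.3 in pregnant basal cells (0 to 135). The ranges overlapped, but 6 of 27 virgin cells were at 1 FPKM or more (22.2%, exact 95% interval 8.62 to 42.3) against 79 of 97 pregnant cells (81.4%, 72.3 to 88.6). The intervals, exact Clopper-Pearson here and throughout, cover the counting of cells only. The difference was 2.77. Lama3, the α chain of the laminin of hemidesmosomes, was detected in 17 of 27 virgin (62.96%, 42.4 to 80.6) and again 79 of 97 pregnant basal cells, with medians of 4.61 (0 to 214) and 6.63 FPKM (0 to 165). Its difference was 0.00295, from mean log2 values of 2.84 ± 2.76 and 2.85 ± 1.88 (SD, n = 27 and 97 cells), and taking the log of mean FPKM in place of the mean of logs gave -1.17. No virgin luminal cell of 54 reached 1 FPKM of Lama3, which allows a share of up to 5.56%.

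No α chain was detected in 5 of 27 virgin and 5 of 97 pregnant basal cells, and Lama1 was detected together with Lama3 in 5 and 66. Lama5, the α chain of most adult epithelial and vessel basement membranes, ran the other way by share of cells. Its basal minus luminal differences stayed under the size called (-0.80 virgin, -0.21 pregnant). It was detected in 25 of 54 virgin luminal cells (46.3%, 32.6 to 60.4), with a median of 0.826 FPKM (0 to 51.8), in 7 of 48 pregnant luminal, 6 of 27 virgin basal and 9 of 97 pregnant basal cells. Its pregnant minus virgin luminal difference was -0.96, just under the size called. Lama4 reached 1 FPKM in 10 of 97 pregnant basal and 7 of 48 pregnant luminal cells. Lama2 reached it only in the fibroblast-leading cells, at 2.25 FPKM in virgin basal cell 15 and 174 FPKM in pregnant luminal cell 37.

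Among β and γ chains, Lamb1 (1.38 virgin, 2.67 pregnant) and Lamb3 (1.75 and 1.52) were called higher in the basal gate in both states. Lamc1 was called higher there between pregnant gates (2.71) and not between virgin gates (0.69). Lamb1, of the laminins with α1 or α5, was a median of 0.436 FPKM in virgin basal (0 to 122) and 13.7 in pregnant basal cells (0 to 277), detected in 12 of 27 and 77 of 97, against 5 of 54 virgin and 12 of 48 pregnant luminal cells. Lamc1, the common γ chain, was a median of 1.94 (0 to 122) and 16.7 (0 to 188), detected in 16 of 27 and 79 of 97 basal cells, and also in 18 of 54 virgin and 13 of 48 pregnant luminal cells. Lamb3 was detected in 14 of 27 and 63 of 97 basal, and in 8 of 54 virgin and 19 of 48 pregnant luminal cells. The ranges overlapped in every comparison of these 3 chains. Lamb2, a β chain of vessel and muscle laminins, was detected in 4 of 27 and 24 of 97 basal and in 10 of 54 virgin and 4 of 48 pregnant luminal cells.

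All chains of laminin-111 (Lama1, Lamb1, Lamc1) were at 1 FPKM in 53 of 97 pregnant basal cells, 1 of 27 virgin basal, 3 of 48 pregnant luminal and 0 of 54 virgin luminal cells. Counts of laminin chains detected together, here and for Lama1 with Lama3, depend on the share of cells with each chain alone. Pairing beyond those shares was not tested. Within pregnant basal cells the Spearman correlation of chain levels was -0.039 for Lama3 and Lamb3, 0.12 for Lama1 and Lamb1, and 0.26 for Lamb1 and Lamc1 over 97 cells. In virgin luminal cells, 24 of 54 had exactly 1 α chain and 27 had none.

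**Figure D4:**
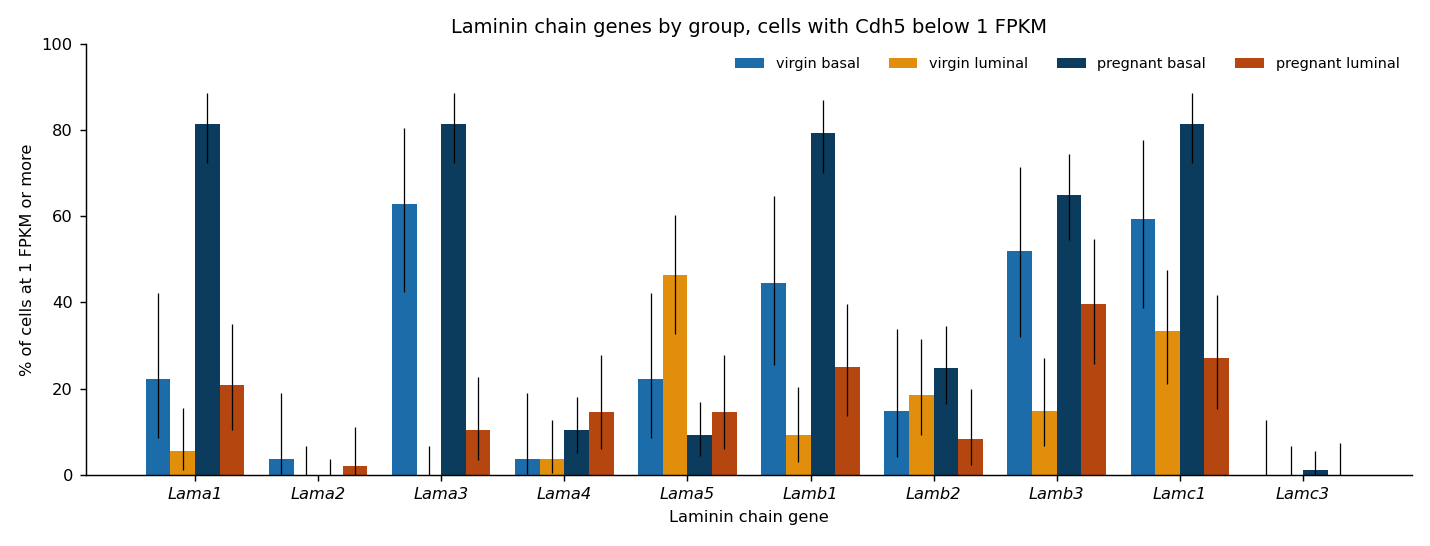
Share of cells (%) at 1 FPKM or more for 10 laminin chain genes in the 4 groups, with exact 95% intervals that cover the counting of cells only. Lama1 stands at 81.4% in pregnant and 22.2% in virgin basal cells, Lama3 at 81.4% and 62.96%, and Lama5 is greatest in virgin luminal cells at 46.3%.

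The collagens of hemidesmosomes and anchoring fibrils, which tie basal cells to the basement membrane, were detected mostly in the basal gate. Col17a1, the hemidesmosomal collagen, was a median of 3.16 FPKM in virgin basal (0 to 121) and 11.9 in pregnant basal cells (0 to 206), detected in 16 of 27 and 78 of 97, against 1 of 54 and 1 of 48 luminal cells. The single pregnant luminal cell was cell 2, which led with basal markers. Col7a1, which forms anchoring fibrils, was detected in 6 of 27 and 40 of 97 basal cells and in 1 of 54 and 3 of 48 luminal cells. Col23a1, another transmembrane collagen, was detected in 21 of 97 pregnant basal cells, up to 149 FPKM, and 1 of 27 virgin basal cells. Col18a1, a basement membrane collagen whose end fragment is endostatin, was detected in 11 of 27 and 63 of 97 basal cells, with a pregnant median of 3.82 FPKM (0 to 301).

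Fibril-associated collagens, which bind to the surface of other collagen fibrils, were among the basal genes too. Col14a1 (chromosome 15, 55307750 to 55520803) was a median of 0.0361 FPKM in virgin basal (0 to 57.9) and 11.5 in pregnant basal cells (0 to 258), detected in 9 of 27 and 76 of 97, and was 0 in all 54 virgin luminal cells. Col16a1 was detected in 13 of 27 and 67 of 97 basal cells, with medians of 0.301 (0 to 204) and 4.49 FPKM (0 to 77.1). Col9a2, a chain of type IX collagen, best known from cartilage, was detected in 17 of 27 virgin basal cells (median 6.30, 0 to 212) and 66 of 97 pregnant basal cells (median 16.4, 0 to 109), against 8 of 54 and 5 of 48 luminal cells. Col12a1 was detected in 33 of 97 pregnant basal and 3 of 27 virgin basal cells. The chains of type IX collagen differed in their shares of cells, and pairing beyond those shares was not tested. Col9a3 was detected in 33 of 97 pregnant basal cells, and all 3 chains in 6 of 97. Col9a1 was most frequent in the pregnant luminal group, with 18 of 48 cells (37.5%, 23.95 to 52.65), a median of 0.0808 FPKM and a highest value of 60.3, against 9 of 54 virgin luminal, 2 of 27 virgin basal and 15 of 97 pregnant basal cells. Of the 44 pregnant luminal cells that led with luminal markers, 17 had Col9a1, and 2 of 48 had Col9a1 and Col9a2 together.

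The classical stromal collagens reached high levels in the 2 fibroblast-leading cells. Col1a1 was at 1 FPKM in 3 of the 226 cells: pregnant luminal cell 37 at 2760 FPKM, virgin basal cell 15 at 9.33 FPKM and a virgin luminal cell at 1.98 FPKM. Col3a1 was 3346 FPKM in pregnant luminal cell 37 and 912 FPKM in virgin basal cell 15, with 76.5 FPKM as the highest of 3 pregnant basal cells. Pregnant luminal cell 37 also held 14005 FPKM of Sparc, 210 of Fn1, 892 of Col6a1 and 110 of Nid1, with 524 FPKM of Lum, 126 of Dpt and 23.7 of Pdgfra, which mark fibroblasts. None of the 44 pregnant luminal cells that led with luminal markers reached 1 FPKM of Col1a1, Col1a2, Col3a1, Col5a2 or Col6a1. Minor fibrillar chains did occur in basal cells: Col11a1 in 41 of 97 pregnant and 5 of 27 virgin cells (highest 76.05 and 36.002), and Col5a2 in 18 and 6. Col6a1, of the microfibrillar type VI collagen, was detected in 26 of 97 pregnant basal cells up to 425 FPKM, Col6a2 in 11, and Col6a1, Col6a2 and Col6a3 together in none of the 97.

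Col8a1, a short-chain collagen best known from vessel walls and from the membrane beneath corneal endothelium, was the only member called higher in a luminal than a basal group. It lies on chromosome 16 (57624258 to 57754737). It was a median of 6.70 FPKM in virgin luminal cells (0 to 282), with 33 of 54 cells at 1 FPKM or more (61.1%, 46.9 to 74.1). No cell of the other 3 groups reached 1 FPKM. The highest values there were 0.186 FPKM over 48 pregnant luminal cells, 0.159 over 27 virgin basal and 0.133 over 97 pregnant basal cells; in the order virgin basal, pregnant basal and pregnant luminal, a count of 0 allows shares of up to 11.1%, 3.09% and 6.25%. The luminal groups therefore overlapped only below 1 FPKM, and pregnant minus virgin luminal was -2.98.

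Within virgin luminal cells Col8a1 was detected mostly where Esr1, the oestrogen receptor α gene, was. It was detected in 30 of 33 cells with Esr1 at 1 FPKM or more (90.9%, 75.7 to 98.1; median 24.4 FPKM, highest 282) and in 3 of 21 without (14.3%, 3.05 to 36.3; median 0.0435, highest 101.5). The cells with Esr1 had a median of 3912 genes detected and those without 3485. Across the 54 cells the Spearman correlation of Col8a1 was 0.58 with Esr1, 0.81 with Prlr (prolactin receptor), 0.50 with Pgr (progesterone receptor) and -0.54 with Kit, a luminal progenitor marker. Col6a3, the largest chain of type VI collagen, was detected in 15 of 54 virgin luminal cells (27.8%, 16.5 to 41.6; median 0.0118 FPKM, 0 to 30.1), against 4 of 27 virgin basal, 12 of 97 pregnant basal and 5 of 48 pregnant luminal cells. It was detected in 14 of 33 virgin luminal cells with and 1 of 21 without Esr1, and Lama5 in 18 of 33 and 7 of 21. Lamc1 was detected in 13 of 33 and 5 of 21. The share was lower with than without Esr1 for Agrn (16 of 33 and 12 of 21), Col9a1 (4 of 33 and 5 of 21) and Col4a6 (3 of 33 and 7 of 21). These receptors were looked at after the Col8a1 values were seen, and the cells share library preparation.

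**Figure D5:**
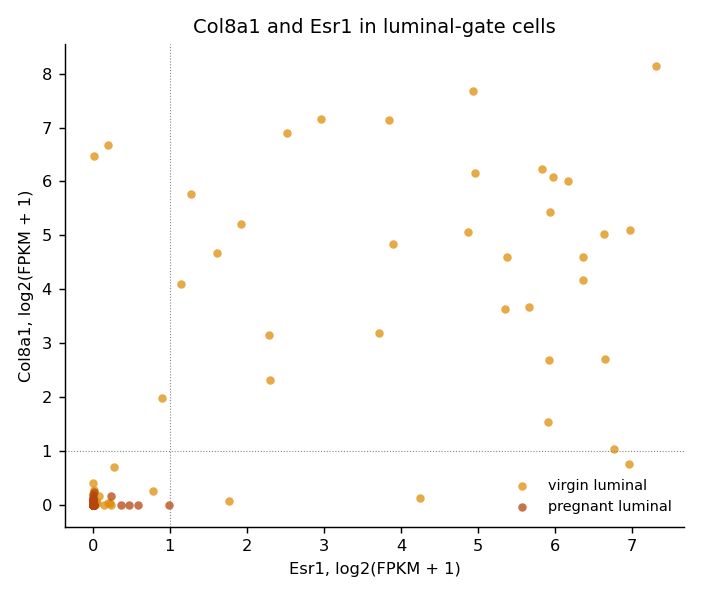
Col8a1 against Esr1 in virgin and pregnant luminal-gate cells with Cdh5 below 1 FPKM, log2(FPKM + 1), dotted lines at 1 FPKM. Of the virgin cells, 30 lie above both lines, 3 have Col8a1 alone and 3 have Esr1 alone; no pregnant cell lies above the Col8a1 line.

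Of the linkers, Agrn was detected in the greatest share of luminal cells, in virgin and in pregnant glands. Its level was still called higher in basal than in luminal cells, by 1.03 in virgin and 1.11 in pregnant glands. It was detected in 16 of 27 virgin basal (median 5.61, 0 to 121), 77 of 97 pregnant basal (median 14.1, 0 to 136), 28 of 54 virgin luminal (median 1.02, 0 to 49.7) and 33 of 48 pregnant luminal cells (median 4.38, 0 to 54.2). Hspg2 was detected in 47 of 97 pregnant basal cells, with no value above 23.1 FPKM, and in 2 of 27 virgin basal, 2 of 54 virgin luminal and 6 of 48 pregnant luminal cells. Nid1 was detected in 6 of 27 and 19 of 97 basal cells, and Nid2 in no cell of the 4 groups. Fn1, encoding fibronectin, was detected in 5 of the 226 cells.

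Between virgin gates 38.4% of the 7700 genes that passed differed by 1 or more in size, and between pregnant gates 28.1%, between basal groups 19.2% and between luminal groups 12.3% of those that passed did. Between virgin gates 27 of the 60 genes passed the filter on low values (a mean share of at least 10% over the groups), 14 were higher in basal cells, where 3.56% of genes were, and 1 was lower, where 34.8% of genes were. Between pregnant gates 31 passed, 20 were higher in basal cells against 7.06% of 7947 genes, and 0 were lower against 21.1%. The median difference of the members that passed was 1.03 and 1.52, beside -0.67 and -0.38 over all genes that passed. Several members passed through the basal share alone (Col14a1 and Lama3 between virgin gates, for example) and had to differ, so these counts describe those members and give no support of their own. Without the 7 cells against their gate, 14 and 23 members were called higher in the basal gate, where 3.94% and 7.53% of all genes were. Over all members above 0 in any cell, with no filter, the medians were 0.36 and 0.26.

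Between pregnant and virgin basal cells 32 members passed, and 11 were higher in pregnancy, where 18% of 6327 genes were, among them Col4a1 (3.35), Lama1 (2.77), Col4a2 (2.23), Col14a1 (2.00), Lamb1 (1.89), Lamc1 (1.68), Sparc (1.36), Col4a6 (1.28), Col4a5 (1.20) and Col18a1 (1.12). None was lower, where 1.23% of genes were. The median difference of the members was 0.80 beside 0.32 over all genes. Depth and genes detected moved with this contrast. Virgin basal cells fell into runs of depth: 15 of 27 had under 7 M fragments, with a median of 1680 genes and 9 members, and the 4 with 7 to 12 M and 8 with more each had a median of 15 members. The 22 pregnant basal cells under 7 M had a median of 2830 genes and 19 members. The 75 with 7 to 12 M had 2742 genes and 17 members. Among cells under 7 M fragments (22 pregnant, 15 virgin), 15 members were higher, where 27.9% of genes were, and 0 lower. Among cells with 7 to 12 M (75 pregnant, 4 virgin), 5 were higher and 2 lower, where 13.5% and 18.2% of genes were. Among cells with at least 2000 genes (89 pregnant, 11 virgin), 6 were higher and 3 lower, where 12.2% and 5.49% of genes were. The part of depth in this contrast and that of pregnancy cannot be told apart.

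Of the 11, 2 were higher in pregnant basal cells at every alternative setting run, among them Lama1, by 1.14 to 4.52. Among cells under 7 M fragments, Lama1 was detected in 3 of 15 virgin and 15 of 22 pregnant cells, and among cells with 7 to 12 M in 1 of 4 and 64 of 75. Col4a1 was detected in 5 of 15 and 22 of 22, and in 4 of 4 and 75 of 75. With at least 2000 genes, Col4a1 was higher by 1.24 rather than 3.35, Lamc1 by 0.027 rather than 1.68, and Col4a6 differed by -0.0093.

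Between pregnant and virgin luminal cells 16 members passed, 0 were higher and 2 were lower, Col8a1 among them, where 6% and 6.26% of 8355 genes were, so the share of members called was near that of all genes. The median difference was -0.085 beside -0.017. Sparc differed by 1.14 but did not pass the filter, and among the 44 pregnant luminal cells that led with luminal markers its mean log2 value was 0.31 against 0.061 in virgin luminal cells. The pregnant basal group is part of 2 of these comparisons, as is every other group, so the 4 sets of differences are not independent.

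The genes that fold, modify and bind these proteins were less uniform. Their differences between basal groups share the limit of that contrast, in which the parts of depth and of pregnancy cannot be told apart. Of 17 genes of collagen folding and modification, 12 passed between pregnant and virgin basal cells and 5 were higher, where 18% of all genes were. The 5 were led by Serpinh1 (2.29), the collagen chaperone Hsp47, detected in 82 of 97 and 8 of 27 cells, and by Ppib (2.22). Between gates the same list was split, with P4hb, a subunit of prolyl hydroxylase and general protein disulfide isomerase, lower in basal cells by -2.65 in virgin and -1.69 in pregnant glands. Among 15 genes of maturation and crosslinking, Pxdn, the peroxidase that crosslinks type IV collagen, was higher in pregnant than virgin basal cells (1.73) and the transglutaminase Tgm2 was lower in the basal than the luminal gate (-2.65 virgin, -2.50 pregnant). Of 18 other basement membrane and matrix proteins, Thbs1 was higher in each comparison, by 3.23 (virgin) and 2.49 (pregnant) in basal over luminal and by 2.21 (basal) and 2.95 (luminal) in pregnant over virgin cells, and Eln, encoding elastin, was at 1 FPKM in 0 of 54 luminal and 13 of 27 basal cells of virgin glands.

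Of 14 laminin and collagen receptors, 10 passed between virgin gates and 3 were higher in basal cells, where 3.56% of all genes were. Of the 10 that passed between pregnant gates 3 were higher in basal cells, where 7.06% of all genes were. Of the 11 that passed between basal groups 3 were higher in pregnancy, where 18% of all genes were. None was lower in these comparisons, where 34.8%, 21.1% and 1.23% of all genes were. Between basal groups the median difference of the 11 was -0.094, beside 0.32 over all genes. Between gates it was 0.087 in virgin and 0.52 in pregnant glands, beside -0.67 and -0.38. Itga3, of a laminin-binding integrin, was detected in 14 of 27 basal and 17 of 54 luminal cells of virgin glands (1.29) and in 60 of 97 and 8 of 48 of pregnant glands (1.96), and Itga1, of a collagen-binding integrin, in 42 of 97 and 1 of 48 of pregnant glands (1.503). Itga6, the α6 integrin of laminin receptors, was a median of 58.4 FPKM in virgin basal, 106 in pregnant basal, 24.97 in virgin luminal and 27.5 in pregnant luminal cells. Dag1, dystroglycan, was detected in 13 of 27 virgin and 81 of 97 pregnant basal cells (1.68). Among 17 matrix proteases and inhibitors, Adamts1 was higher in the basal gate by 4.27 and 3.53, and Mmp14 was detected in 30 of 54 virgin but 6 of 48 pregnant luminal cells (-2.07), in the same direction as Col8a1.

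The 13 cells with Cdh5 at 1 FPKM or more held a median of 8 of the 60 genes (4 to 15). Endothelial markers led in 8, adipocyte markers in virgin basal cells 23 and 24, basal markers in virgin basal cell 3 and pregnant basal cell 15, and luminal markers in pregnant luminal cell 16. In the 8 endothelial-leading cells Sparc was a median of 587 FPKM (269 to 3290), a level inside the range of basal cells, Col4a1 85.8 (0.107 to 208) and Col4a2 13.3 (0 to 95.1). Hspg2 was detected in 6 of 8, Nid1 in 5 and Nid2 in 3, while Lama1, Lama3, Lamb3, Col17a1, Col14a1 and Col9a2 were detected in 0 of 8. So were other members, among them Col1a1, Col3a1 and Col6a1, and a count of 0 in 8 cells limits a share only loosely. Nid2, at 1 FPKM in none of the 226 other cells, was detected in 4 of the 13. With these cells left in their groups the members higher in pregnant than virgin basal cells numbered 12, where 19.7% of all genes were higher, and Col4a1 differed by 2.88 rather than 3.35.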

How the data were processed

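The deposited file is a table of FPKM for 18850 genes in single cells, made by the authors with Trimmomatic 0.35, TopHat2 2.0.13 and Cufflinks 2.2.1 on mm10, per the submitters' processing notes. The sources used here name neither the annotation nor how reads that map to several places were treated, and the unit was inferred from these tools and the values. Libraries were made with SMARTer and Nextera XT, per the labels' protocols, which do not mark strand. Capture sites were inspected for doublets, per the labels' protocols, and no doublet caller was run here.

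Values were compared as the mean over cells of log2(FPKM + 1), a pseudocount of 1 that understates differences of low genes. Genes entered a comparison where the mean of the 2 groups' shares of cells at 1 FPKM was at least 10%. With 1 sample a group, no test was run. Intervals are exact Clopper-Pearson at 95%, and a share of 0 is limited by 3 cells of the group; PCR copies are not independent molecules, and both cover counting error only. Fragments per cell were recovered from the steps of low FPKM values, a method tested on simulated data. Members at 1 FPKM in at least 25% of the cells of some group are described singly, and from each list of pathway genes up to 3 per direction. Marker lists gave each cell's leading list. A gene of the set that enters the counts is not reported singly here. The members and lists were chosen with earlier results of these data known. Coordinates are GRCm38 and promoter sequences RefSeq. Alternatives changed the pseudocount, filter, cells, scaling and the Cdh5 limit. These 4 were chosen after seeing the data: leaving out cells against their gate, the same upper quartile with a middle range of genes, and cells under 7 M (mega) fragments or with 7 to 12 M fragments. Python 3.11.15, numpy 2.4.6, pandas 2.3.3 and scipy 1.17.1 were used.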

Additional observations from a re-analysis of the deposited data

How the results depend on the processing

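Of 20 members higher in the pregnant basal than luminal gate 10 kept their call in every alternative run, as did 5 of 14 between virgin gates, Col8a1 in both comparisons that call it, and 2 of 11 between pregnant and virgin basal cells. With a pseudocount of 0.1, 21 members were higher and 2 lower in basal cells between virgin gates (median 1.65), where 5.23% and 61.1% of all genes were. Between pregnant gates 26 were higher and 1 lower (median 2.66), where 11.1% and 42.7% of all genes were. At that pseudocount 21 were higher in pregnant than virgin basal cells (median 1.45), where 36.4% of all genes were. In pregnant against virgin luminal cells 5 were higher and 4 lower (median -0.18), where 13.98% and 15.2% of all genes were. With a pseudocount of 10 the members higher were 5 between virgin gates (median 0.42), 10 between pregnant gates (0.59) and 5 between basal cells (0.29), and 1 was lower between luminal cells (median -0.012), where 1.56%, 3.11%, 4.69% and 1.54% of all genes were. Without the filter the medians were 0.36, 0.26, 0.093 and, between luminal cells, 0.12, with 1 member higher there, where 3.18% of all genes were. With at least 2000 genes the median between virgin gates was 1.63, and between basal cells 6 members were higher and 3 lower (median 0.35), with Col4a6 at -0.0093. In the middle range of genes detected (25th to 75th percentile over all cells) these values were 1.56, 7 and 2 (median 0.22, 6 virgin basal cells) and -1.65, and 2 members were higher between luminal cells (median 0.16); of all genes 16.5% were higher and 11.1% lower between basal cells, and 7.38% higher between luminal cells. From the log2 of mean FPKM the median between virgin gates was 2.44, 4 members were lower between basal cells with Lama3 at -1.17, and 4 were higher between luminal cells (median 0.21), where 12.8% and 12.1% of all genes were. Without the cells against their gate the median between luminal cells was -0.37. With the same upper quartile and the middle range of genes, 22 members were higher between virgin gates (median 1.75), 4 higher and 4 lower between basal cells (median -0.15; Col4a6 -2.56, Lamc1 -0.44, Sparc -0.30) and 2 higher between luminal cells (median 0.16). In that setting 21.4% of all genes were higher between virgin gates and 8.21% between luminal cells. Between basal cells 11.4% were higher and 22.1% lower, with a median of -0.30 over all genes. Among cells under 7 M fragments Col9a2 differed by 1.41 between basal cells, and among those with 7 to 12 M 5 members were higher and 2 lower (median 0.50), with Lamc1 at -1.17. The cause of these changes was not tested. With the same summed FPKM in each cell, 3.66% of all genes were higher and 9.26% lower between luminal cells, and the median of all genes was -0.17 there and -0.23 between pregnant gates, against -0.017 and -0.38; with the same upper quartile it was 0.18 between basal cells, against 0.32. No paired analysis was possible because the numbers in the titles only name cells and the results come from no test.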
